A study of Homo sapiens with 5 samples.

Results

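The proteasome genes were taken as all genes whose symbol begins with PSMA to PSMG and a number. Of the 18239 genes measured, 46 matched. Of these, 44 encode subunits, activators, an inhibitor or assembly factors of the proteasome and are described here as the proteasome genes. PSMC3IP and PSME3IP1, which share the letters and encode partner proteins, are given apart at the end. PSMC5, PSMD7 and PSMD13, all cap subunits, and the immunoproteasome gene PSMB10 were not analysed here as genes.

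The cells were GFP-SAS, a line with green fluorescent protein derived from a squamous cell carcinoma of the human tongue. All 5 groups were treated for 24 h. The control groups were the vehicle DMSO and a non-targeting siRNA (siNT), for which no dose is given here, the labels leaving it unclear. The treated groups were 100 nM MLN8237 (alisertib, an inhibitor of Aurora kinase A) and 10 nM of siAURKA-1 or siAURKA-2, a pair of siRNAs against the mRNA of that kinase. Each group was 1 array, so no difference below has a replicate check, no test was possible and precision is limited by the number of arrays. All groups come from this 1 line, and in RNA from a whole culture, fewer cells of a type and less RNA per cell cannot be told apart.

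The 26S proteasome degrades proteins marked with ubiquitin. Its 20S core is a barrel of rings built from alpha subunits (PSMA) on the outside and beta subunits (PSMB) on the inside, and only some beta subunits cut peptide bonds. The 19S cap holds a base of ATPases (PSMC) that unfold and feed in substrates, and a lid whose deubiquitinase removes ubiquitin, with PSMD subunits in both. Interferon induces alternative catalytic beta subunits that form the immunoproteasome, along with the PA28 activators PSME1 and PSME2, which favour peptides for MHC class I molecules. When the proteasome is inhibited, the transcription factor NFE2L1 raises its subunit genes together through antioxidant response elements in their promoters.

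A level below is the deposited log2 value, in which every probe set was centred on its median over the 5 arrays. Such a level compares the arrays for 1 gene and says nothing of how abundant that gene is, and neither the squamous identity of the cells nor low signal could be checked. A difference is the log2 value of the first named array minus that of the second. The targeted gene AURKA stood at 0.15 on the DMSO array, 0.64 on MLN8237, 0 on siNT, -3.36 on siAURKA-1 and -2.64 on siAURKA-2, low on both arrays labelled for its siRNAs. The leukocyte markers measured (10 of 11 listed) had medians of 0, -0.0039, 0.0014 and 0.01 for siAURKA-1 and siAURKA-2 against siNT, MLN8237 against DMSO and siNT against DMSO, and the 7 fibroblast markers had 0.0025, 0.02, -0.01 and -0.0025. The squamous epithelium markers (5 of 8 listed) had 0.05, -0.21, -0.25 and 0.0016, and 4, 0, 1 and 3 of the 5 lay above 0. The basal keratin KRT5 was at -1.82 for siAURKA-2 against siNT and -0.45 for MLN8237 against DMSO, but 0.32 for siAURKA-1 against siNT. The part of the markers in the values below was not tested.

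Promoters are shown for PSMB8, PSMB9, PSME1 and PSME2, the members known to be induced by interferon, and for PSMG1, which differed between the arrays with and without siRNA and was chosen after its values were seen. Each is the 250 bases before the transcription start, from RefSeq on GRCh38.p14, read 5′ to 3′ on the strand of the gene, and where a gene has several starts the window with a match is shown. PSMB8 has another start, whose window held no match. PSMB9 (catalytic beta subunit) lies at chr6:32853942-32854191, plus strand, PSMB8 at chr6:32844048-32844297, minus strand, PSME1 at chr14:24135944-24136193, plus strand, PSME2 at chr14:24146611-24146860, minus strand and PSMG1 (core assembly chaperone) at chr21:39183452-39183701, minus strand. Capitals mark matches, on either strand, to an antioxidant response element (TGACNNNGC), an interferon-stimulated response element (GAAA, any 2 bases and GAAA) or a gamma-activated site (TTCNNNGAA). The matches shown do not overlap.
PSMB9: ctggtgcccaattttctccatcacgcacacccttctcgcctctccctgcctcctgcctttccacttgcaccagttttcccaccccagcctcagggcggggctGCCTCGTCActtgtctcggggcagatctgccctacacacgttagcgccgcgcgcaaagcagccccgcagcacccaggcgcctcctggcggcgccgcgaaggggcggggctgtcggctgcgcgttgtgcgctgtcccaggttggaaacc
PSMB8: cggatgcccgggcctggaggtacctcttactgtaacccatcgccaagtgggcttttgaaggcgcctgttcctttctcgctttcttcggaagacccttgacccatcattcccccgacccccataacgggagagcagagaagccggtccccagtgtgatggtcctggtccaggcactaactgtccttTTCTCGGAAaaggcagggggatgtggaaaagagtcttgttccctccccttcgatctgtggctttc
PSME1: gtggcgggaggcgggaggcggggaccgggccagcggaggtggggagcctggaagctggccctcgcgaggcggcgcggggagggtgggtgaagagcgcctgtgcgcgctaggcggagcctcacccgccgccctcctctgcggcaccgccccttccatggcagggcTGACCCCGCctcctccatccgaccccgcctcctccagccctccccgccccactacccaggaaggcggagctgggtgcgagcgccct
PSME2: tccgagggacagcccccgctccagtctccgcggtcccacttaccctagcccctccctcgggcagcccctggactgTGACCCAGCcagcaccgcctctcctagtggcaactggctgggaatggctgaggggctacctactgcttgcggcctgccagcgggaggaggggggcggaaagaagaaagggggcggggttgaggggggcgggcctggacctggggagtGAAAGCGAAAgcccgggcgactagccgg
PSMG1: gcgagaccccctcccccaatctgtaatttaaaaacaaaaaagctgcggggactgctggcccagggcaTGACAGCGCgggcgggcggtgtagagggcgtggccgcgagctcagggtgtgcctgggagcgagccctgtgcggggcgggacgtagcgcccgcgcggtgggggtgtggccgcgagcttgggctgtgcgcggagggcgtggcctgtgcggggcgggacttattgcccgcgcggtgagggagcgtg
The capitals in PSMB9, PSME1 and PSMG1 and the first in PSME2 are antioxidant response element letters, the capitals in PSMB8 are gamma-activated site letters, and the second run in PSME2 is the interferon-stimulated response element.

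Over the 38 proteasome genes with such windows (46 windows in all), antioxidant response element letters occurred in 12 windows (26.1%), against 10.9% of all 35116 windows of the same length. They were in windows of the core genes PSMA4, PSMB3 and PSMB9, the cap and cap assembly genes PSMD3, PSMD5, PSMD9 and PSMD12, the activators PSME1, PSME2 and PSME4 and the core assembly genes PSMG1 and PSMG2. Interferon-stimulated response element letters occurred in 4 (8.7%, against 3.02%), namely those of PSMA4, PSMB4, PSME2 and PSMG4. Gamma-activated site letters occurred in 7 (15.2%, against 6.57%), of PSMA2, PSMA8, PSMB5, PSMB8, PSMC4, PSMD3 and PSME3. The letters CCAAT, another common promoter motif, occurred in 17 (37.0%, against 32.0%). A match of letters is a description of the window and not a binding site.

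As among all genes, few proteasome genes were 1.5-fold apart between treatments. Their median difference was 0.03 for siAURKA-1 against siNT, -0.05 for siAURKA-2 against siNT, -0.06 for MLN8237 against DMSO and -0.01 for siNT against DMSO, where the median over all genes was 0 each time. At least 1.5-fold higher than siNT on siAURKA-1 was 1 of 44 (PSMA1), beside 2.57% of all genes, and at least 1.5-fold lower was 1 (PSMG4), beside 4.48%. On siAURKA-2, 0 of 44 were 1.5-fold higher than siNT and 0 lower, beside 1.96% and 3.11% of all genes. On MLN8237, 0 were higher than DMSO and 0 lower, beside 0.367% and 0.115%. Between the controls, 0 were higher with siNT and 1 lower (PSMG3), beside 1.53% and 0.554%. Between the AURKA siRNAs, 1 was higher on siAURKA-1 (PSMA1) and 0 lower, beside 3.68% and 3.99%. The siRNA comparisons share the siNT array, and those of MLN8237 and siNT share the DMSO array, so they are given side by side only. These shares of all genes include genes that the cells may not express.

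With the controls exchanged, siAURKA-1 against DMSO had 1 of 44 at least 1.5-fold higher (PSMA1) and 2 lower (PSMG1 and PSMG4), beside 3.27% and 3.57% of all genes. Against siNT, MLN8237 had 1 higher (PSMG3) and 1 lower (PSMB9), beside 0.641% and 0.965%. At 1.2-fold, 4 genes were higher and 3 lower on siAURKA-1 than on siNT, beside 10.5% and 11.8%. On siAURKA-2 it was 1 and 2 against siNT, beside 8.71% and 10.2%, and 2 and 9 against DMSO, beside 10.1% and 9.05%. On MLN8237 it was 0 and 0 against DMSO, beside 2.69% and 2.11%, and on siNT it was 1 and 3, beside 7.88% and 4.5%. For siAURKA-1 against DMSO it was 4 and 4, beside 11.8% and 10.4%, and for MLN8237 against siNT 1 and 4, beside 3.61% and 6.81%. The number of genes lower on siAURKA-2 thus differed with the control.

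The median range of the proteasome genes was 0.23, beside 0.22 over all genes, and 6 of 44 spanned at least 1.5-fold, beside 16.2% of all genes. Those 6 were PSMG3, PSMA1, PSMG1, PSMB9, PSME1 and PSMG4. None of the 14 cap subunits measured and none of the 7 constitutive beta subunits were among them, whereas 3 of the 4 core assembly factors were. Narrowest of all was PSMA5, an alpha subunit, with a range of 0.06.

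**Figure D1:**
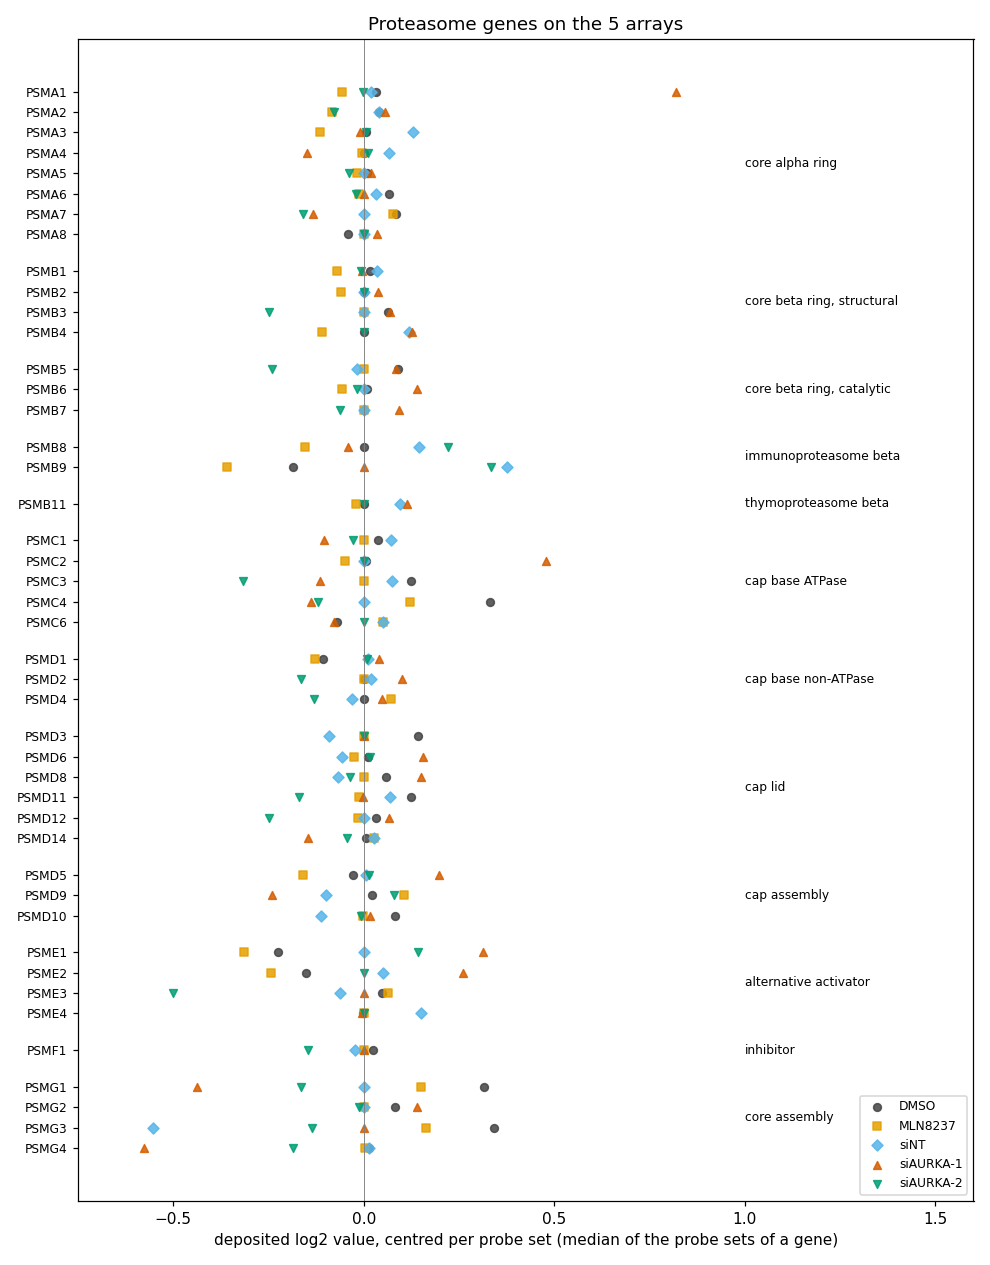
Deposited log2 value of each of the 44 proteasome genes (x axis, centred per probe set, median of the gene's probe sets) on the 5 arrays, with genes grouped by role and each array given its own colour and marker. Most core and cap genes lie near 0 on every array, while PSMA1 stands at 0.82 on siAURKA-1 and PSMG3 at -0.55 with siNT.

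The balance of small shifts moved with the control array for MLN8237 and siAURKA-1. With MLN8237, 35 of 44 proteasome genes lay below DMSO and 7 above, and 46.1% of all genes lay below. With siAURKA-2, 32 lay below siNT and 9 above (42.3% of all genes below). With siAURKA-1, 27 lay above siNT and 17 below (47.2% of all genes above). With the controls exchanged, 26 lay below and 14 above for MLN8237 against siNT (median -0.02, 50.9% of all genes below). For siAURKA-1 against DMSO it was 22 above and 22 below (49.4% and 38.9% of all genes). For siAURKA-2 against DMSO it was 28 below and 13 above (38.3% and 49.2% of all genes). The MLN8237 and siAURKA-2 shifts were -0.06 and -0.05 in the median, and the middle 50% of all genes spanned -0.06 to 0.04 and -0.08 to 0.09 in those comparisons. Of the 44, 15 had their lowest value on the MLN8237 array and 14 on the siAURKA-2 array, against 1 on the DMSO array, beside 19.3%, 17.7% and 18.6% of all genes. The highest value was on siAURKA-1 for 20 and on DMSO for 12, beside 27.8% and 15.2% of all genes.

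**Figure D2:**
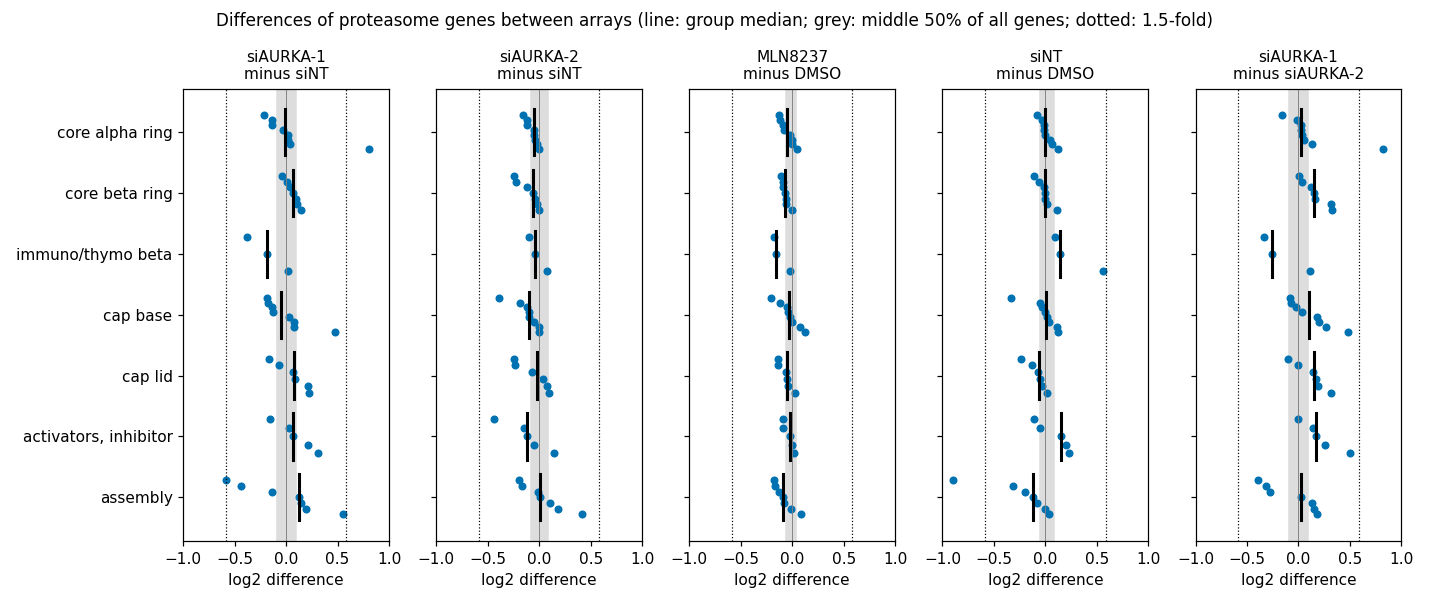
Log2 difference (x axis) of each proteasome gene, a point, in the 5 comparisons, with role groups as rows, the group median as a black line, the middle 50% of all genes in grey and 1.5-fold as dotted lines. Points past the dotted lines are PSMA1 and PSMG4 on siAURKA-1, PSMG3 with siNT and PSMA1 between the siRNAs.

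In the alpha ring, which gates the core, PSMA1 had the widest range over the arrays, and PSMA3, PSMA4 and PSMA7 followed with 0.24, 0.22 and 0.24. The other 7 alpha genes, among them the testis form PSMA8 that replaces PSMA7 in germ cells, differed from siNT by -0.22 (PSMA4) to 0.03 (PSMA8) on siAURKA-1 and by -0.16 (PSMA7) to 0 (PSMA8) on siAURKA-2. PSMA4 stood at 0 on the DMSO array, -0.01 on MLN8237, 0.07 on siNT, -0.15 on siAURKA-1 and 0.01 on siAURKA-2, and it was lower on the siAURKA-1 array on all 3 of its probe sets. PSMA7 was at 0.08 on the DMSO array, 0.08 on MLN8237, 0 on siNT, -0.13 on siAURKA-1 and -0.16 on siAURKA-2, so that the arrays of both AURKA siRNAs lay below the other arrays.

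PSMA1 was the member furthest above siNT on siAURKA-1 and also the least certain. Its levels were 0.03 on the DMSO array, -0.06 on MLN8237, 0.02 on siNT, 0.82 on siAURKA-1 and -0.0032 on siAURKA-2, a difference of 0.80 (1.74-fold). The value is the middle of 2 probe sets that went opposite ways. One stood at 1.84 on siAURKA-1 and 0 with siNT, the other at -0.20 and 0.04. On the other 4 arrays both probe sets lay between -0.11 and 0.06. The higher value thus belongs to 1 probe set on 1 array.

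The constitutive beta genes had a median range of 0.20 over the arrays, beside 0.18 for the alpha genes. PSMB5, PSMB6 and PSMB7 carry the chymotrypsin-like, caspase-like and trypsin-like activities, and PSMB1 to PSMB4 are structural. PSMB5 stood at 0.09 on the DMSO array, 0 on MLN8237, -0.02 on siNT, 0.09 on siAURKA-1 and -0.24 on siAURKA-2, with the siAURKA-2 array lowest on each of its 5 probe sets. It lay -0.22 from siNT and -0.33 from DMSO on siAURKA-2. PSMB6 was at 0.01 on the DMSO array, -0.06 on MLN8237, 0 on siNT, 0.14 on siAURKA-1 and -0.02 on siAURKA-2. PSMB7 was at 0 on the DMSO array, 0 on MLN8237, 0 on siNT, 0.09 on siAURKA-1 and -0.06 on siAURKA-2. Both gene values were highest on siAURKA-1 and spanned 0.20 and 0.15 over all arrays. PSMB6 has 1 probe set. PSMB7 lay above siNT there on 3 of its 5 probe sets, while those at -0.14 and -0.10 had their lowest value there. PSMB3 resembled PSMB5, at 0.06 on the DMSO array, 0 on MLN8237, 0 on siNT, 0.07 on siAURKA-1 and -0.25 on siAURKA-2, read by 1 probe set. PSMB1, PSMB2 and PSMB4 differed from siNT by -0.04, 0.04 and 0.01 on siAURKA-1 and by -0.04, 0 and -0.12 on siAURKA-2. On siAURKA-2, 1 of the 3 probe sets of PSMB2 lay at -0.44 against siNT. Those of PSMB4, also 3, spanned -0.19 to 0.18 there and -0.02 to 0.30 on siAURKA-1. With MLN8237, PSMB7 was level with DMSO and the other 6 constitutive beta genes lay below it, from -0.11 (PSMB4) to -0.06 (PSMB2).

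In the cap, the base and the lid gave small differences of both signs. The 5 measured base ATPases had a median of -0.14 on siAURKA-1 and -0.10 on siAURKA-2 against siNT. PSMC2 went the other way on siAURKA-1, at 0.0049 on the DMSO array, -0.05 on MLN8237, 0 on siNT, 0.48 on siAURKA-1 and 0 on siAURKA-2. Its probe sets stood at 0.13, 0.48 and 0.49 on that array, where each was at its highest. PSMC3, read by 1 probe set, was at 0.12 on the DMSO array, 0 on MLN8237, 0.07 on siNT, -0.12 on siAURKA-1 and -0.32 on siAURKA-2, lowest on siAURKA-2 (-0.39 against siNT). PSMC4 stood at 0.33 on the DMSO array, 0.12 on MLN8237, 0 on siNT, -0.14 on siAURKA-1 and -0.12 on siAURKA-2, highest with DMSO on both probe sets. All 3 siRNA arrays lay below both arrays without siRNA for PSMC4, so that siAURKA-1 and siAURKA-2 differed little from siNT (-0.14 and -0.12) and more from DMSO (-0.47 and -0.45). PSMC1 and PSMC6 differed from siNT by -0.18 and -0.13 on siAURKA-1.

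The base scaffolds PSMD1 and PSMD2 and the ubiquitin receptor PSMD4 differed from siNT by 0.03, 0.08 and 0.08 on siAURKA-1 and by -0.0029, -0.18 and -0.10 on siAURKA-2. Of the 6 lid genes measured, PSMD14, the deubiquitinase that removes ubiquitin chains, stood at 0.01 on the DMSO array, 0.03 on MLN8237, 0.03 on siNT, -0.15 on siAURKA-1 and -0.04 on siAURKA-2, lowest on siAURKA-1. PSMD6 and PSMD8 were highest on siAURKA-1 (0.21 and 0.22 against siNT), and lay above siNT on 2 of 2 and 3 of 3 probe sets. PSMD11 and PSMD12, lid scaffold subunits, were lowest on siAURKA-2, at -0.24 and -0.25 against siNT and -0.29 and -0.28 against DMSO. On siAURKA-2, PSMD12 lay below siNT on all 4 probe sets, but 1 of them was lowest on siAURKA-1 (-0.49) and another on MLN8237 (-0.09). PSMD3 was at 0.14 on the DMSO array, 0.00085 on MLN8237, -0.09 on siNT, 0 on siAURKA-1 and 0 on siAURKA-2, highest with DMSO.

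The 14 constitutive core and 14 cap subunits had similar medians within each comparison. They were 0.02 and 0.05 on siAURKA-1, -0.06 and -0.08 on siAURKA-2, -0.07 and -0.04 with MLN8237, and -0.0043 and -0.03 between the controls. Set directly against siAURKA-2, siAURKA-1 gave medians of 0.09 for the core and 0.15 for the cap, and 31 of the 44 genes were higher on siAURKA-1 and 12 on siAURKA-2, beside 45.5% and 44.5% of all genes. At least 1.2-fold higher there were 7 of 44 genes, beside 11.1% of all genes, and 4 were at least 1.2-fold lower, beside 11.6%. Over the 31 proteasome genes with at least 2 probe sets that median was 0.037, in place of 0.12 over all 44.

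The immunoproteasome gene PSMB9 varied most among the beta subunits. PSMB9, which replaces PSMB6, stood at -0.19 on the DMSO array, -0.36 on MLN8237, 0.38 on siNT, 0 on siAURKA-1 and 0.33 on siAURKA-2. The siNT and siAURKA-2 arrays were high, the DMSO and MLN8237 arrays low, and siAURKA-1 lay between them. PSMB9 was 0.56 higher with siNT than with DMSO (1.48-fold), just short of 1.5-fold. It was -0.38 on siAURKA-1 and -0.04 on siAURKA-2 against siNT, and 0.19 and 0.52 against DMSO, so the sign for both siRNAs depends on the control. Against siNT, MLN8237 gave -0.74, and against DMSO -0.18. Of its 3 probe sets, 2 carried these differences, and the third ranged only from -0.01 to 0.12.

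PSMB8, which replaces PSMB5, varied less, at 0 on the DMSO array, -0.15 on MLN8237, 0.14 on siNT, -0.04 on siAURKA-1 and 0.22 on siAURKA-2. Here too siAURKA-2 and siNT were high and MLN8237 low, on siAURKA-1 a little below DMSO. Within each array, PSMB8 relative to PSMB5 was 0.25 higher with siNT than with DMSO, 0.30 higher on siAURKA-2 than with siNT, and -0.29 on siAURKA-1 against siNT. PSMB9 relative to PSMB6 gave 0.57, -0.02 and -0.52 in those comparisons. The thymus form PSMB11 ranged over 0.13 in all.

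The interferon-inducible activators were higher on the siRNA arrays than on DMSO and MLN8237. PSME1 and PSME2, neighbouring genes on chromosome 14 whose products form the PA28 ring that opens the core, both had the MLN8237 array lowest, DMSO next and siAURKA-1 highest. PSME1 stood at -0.23 on the DMSO array, -0.31 on MLN8237, 0 on siNT, 0.31 on siAURKA-1 and 0.14 on siAURKA-2, in the same order of these arrays on its 3 probe sets. PSME2, with the antioxidant and interferon response letters shown above, stood at -0.15 on the DMSO array, -0.24 on MLN8237, 0.05 on siNT, 0.26 on siAURKA-1 and 0 on siAURKA-2 on 1 probe set. Against siNT, PSME1 was 0.31 on siAURKA-1 and 0.14 on siAURKA-2, and PSME2 was 0.21 and -0.05. Against DMSO they were 0.54 and 0.37, and 0.41 and 0.15, since siNT itself lay 0.23 and 0.20 above DMSO. PSME3, the nuclear PA28 gamma that is not an interferon-induced form, differed: its levels were 0.05 on the DMSO array, 0.06 on MLN8237, -0.06 on siNT, 0 on siAURKA-1 and -0.50 on siAURKA-2. On siAURKA-2 it was -0.44 against siNT, and each of the 3 probe sets had its lowest value there. On siAURKA-1 it was near siNT (0.06), although 1 probe set stood at -0.23. PSME4, the PA200 activator, and PSMF1, the inhibitor PI31, ranged over 0.16 and 0.17 as gene values. Each value is the median of 6 probe sets that disagreed. For siNT against DMSO those of PSME4 spanned -0.15 to 0.47 and those of PSMF1 -0.35 to 0.52.

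**Figure D3:**
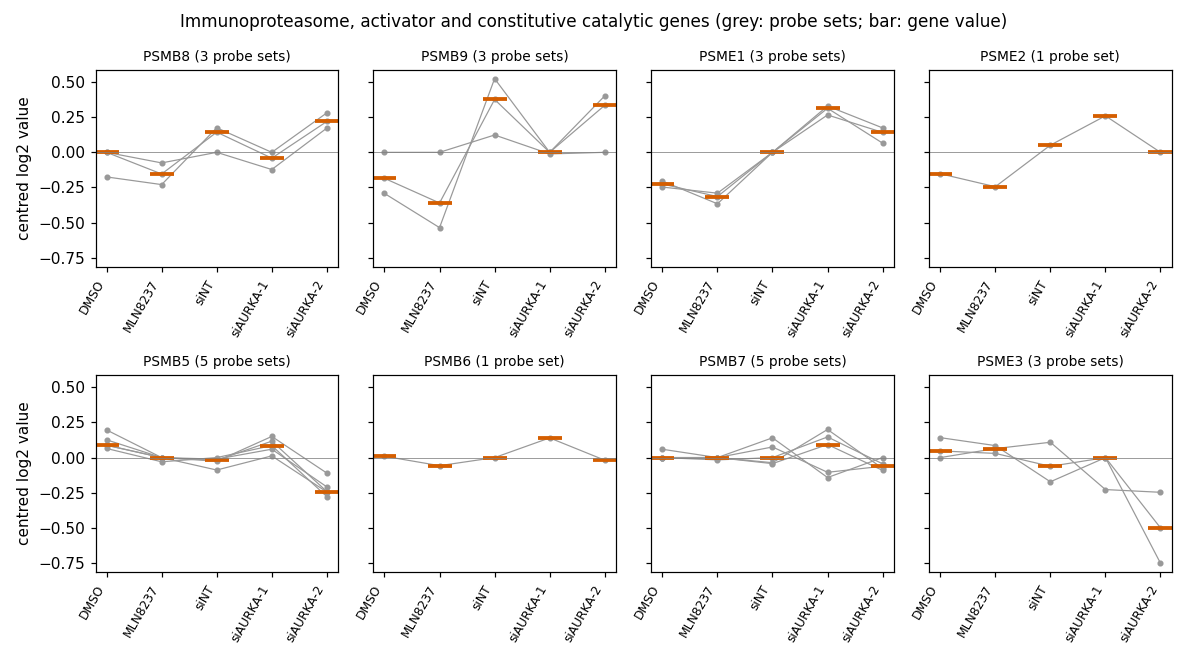
Centred log2 value (y axis) on the 5 arrays of the immunoproteasome genes PSMB8 and PSMB9, the activators PSME1, PSME2 and PSME3 and the constitutive catalytic genes PSMB5, PSMB6 and PSMB7, with each probe set in grey and the gene value as a bar. PSME1 and PSME2 climb from MLN8237 at -0.31 and -0.24 to siAURKA-1 at 0.31 and 0.26, and PSME3 drops to -0.50 on siAURKA-2.

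The core assembly factors held the widest range, that of PSMG3. PSMG1 to PSMG4 are chaperones that build the alpha ring in pairs. PSMG3, partner of PSMG4, stood at 0.34 on the DMSO array, 0.16 on MLN8237, -0.55 on siNT, 0 on siAURKA-1 and -0.14 on siAURKA-2 on 1 probe set, and its siNT array was lowest. It was 1.86-fold lower with siNT than with DMSO (-0.90), so siAURKA-1 and siAURKA-2 appeared 0.55 and 0.42 above siNT yet lay -0.34 and -0.48 from DMSO. PSMG4 stood at 0.01 on the DMSO array, 0.0023 on MLN8237, 0.01 on siNT, -0.58 on siAURKA-1 and -0.19 on siAURKA-2. With siAURKA-1 it was just past 1.5-fold lower than siNT (-0.59) and just as low against DMSO (-0.59), with 5 of its 6 probe sets between -0.92 and -0.34 on that array and the sixth level on every array. The mean of the 6 probe sets did not reach 1.5-fold. PSMG4 was -0.20 on siAURKA-2.

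PSMG1, the partner of PSMG2, stood at 0.32 on the DMSO array, 0.15 on MLN8237, 0 on siNT, -0.44 on siAURKA-1 and -0.16 on siAURKA-2 on 1 probe set. It was -0.44 on siAURKA-1 and -0.16 on siAURKA-2 against siNT, and -0.75 (1.69-fold) and -0.48 against DMSO, which lay above siNT here. PSMG2 ranged over 0.15 only. The cap assembly chaperones were closer together. PSMD9 stood at 0.02 on the DMSO array, 0.10 on MLN8237, -0.10 on siNT, -0.24 on siAURKA-1 and 0.08 on siAURKA-2, lowest on siAURKA-1. PSMD5 differed from siNT by 0.19 on siAURKA-1 and 0.01 on siAURKA-2, and PSMD10, also known as the oncoprotein gankyrin, by 0.13 and 0.10.

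**Figure D4:**
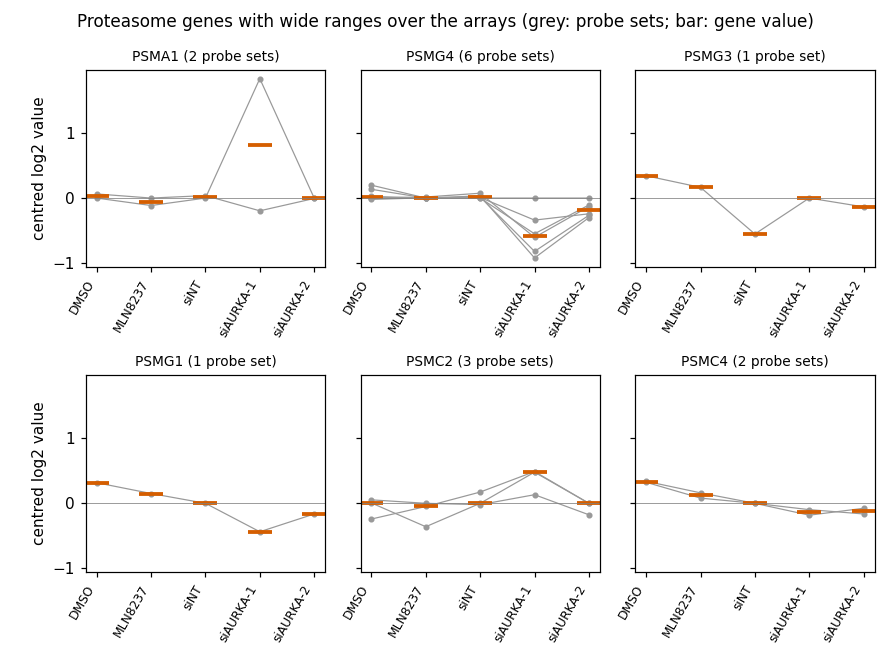
Centred log2 value (y axis) on the 5 arrays of PSMA1, PSMG4, PSMG3, PSMG1, PSMC2 and PSMC4, with each probe set in grey and the gene value as a bar. The probe sets of PSMA1 part on the siAURKA-1 array, at 1.84 and -0.20, whereas those of PSMC4 lie close together on each array.

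The arrays with and without siRNA were also compared, since siNT is the control of both AURKA siRNAs. They are different treatments and not replicates. All 3 siRNA arrays lay above both the DMSO and the MLN8237 array for 5 of 44 proteasome genes (PSME1, PSMB9, PSME2, PSMD1 and PSMD5), beside 13.1% of all genes. They lay below both for 6 (PSMG3, PSMG1, PSMC4, PSMA7, PSME3 and PSMD3), beside 6.35%. For PSMD3 the gap was only 0.00085, and 1 of its 4 probe sets stood at 0.10 on siNT and -0.10 on MLN8237. For PSME3, 1 of its 3 probe sets had siNT (0.11) above DMSO (0) and MLN8237 (0.06). The mean of the siRNA arrays minus the mean of the others was 0.51 for PSMB9, 0.42 for PSME1 and 0.30 for PSME2, and -0.48 for PSMG3, -0.43 for PSMG1 and -0.31 for PSMC4.

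Genes that act with the immunoproteasome were listed by role. Of 13 measured genes of MHC class I antigen processing, which load proteasome peptides for display, 9 had all 3 siRNA arrays above both others and 0 had them below. These counts stand beside 13.1% and 6.35% of all genes. The list's median was 0.15 for siNT against DMSO, 0.04 for siAURKA-1 and 0.12 for siAURKA-2 against siNT, and 0.02 for MLN8237 against DMSO. HLA-B, a class I heavy chain, stood at -0.33 on the DMSO array, -0.07 on MLN8237, 0 on siNT, 0 on siAURKA-1 and 1.17 on siAURKA-2. HLA-C stood at -0.15 on the DMSO array, -0.16 on MLN8237, 0 on siNT, 0.04 on siAURKA-1 and 0.53 on siAURKA-2. Both were highest on siAURKA-2, whereas TAP1, a subunit of the peptide transporter and the divergent neighbour of PSMB9, was highest on siAURKA-1, at -0.27 on the DMSO array, -0.10 on MLN8237, 0 on siNT, 0.40 on siAURKA-1 and 0.16 on siAURKA-2. Sequence shared among class I genes can split probe signal between them, so the HLA values are uncertain.

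Of 8 measured interferon response regulators, 7 had all 3 siRNA arrays above both others and 0 below, beside 13.1% and 6.35% of all genes. The list's medians were 0.26 for siNT against DMSO, 0.11 and 0.36 for siAURKA-1 and siAURKA-2 against siNT, and 0.04 for MLN8237. IRF2, a transcription factor, stood at -0.44 on the DMSO array, -0.38 on MLN8237, 0 on siNT, 0.19 on siAURKA-1 and 0.69 on siAURKA-2, highest on siAURKA-2. The kinase gene JAK1 was at -0.61 on the DMSO array, -0.33 on MLN8237, 0 on siNT, 0.11 on siAURKA-1 and 0.29 on siAURKA-2. IRF1, which drives PSMB9 and TAP1 after interferon, stood at -0.07 on the DMSO array, -0.04 on MLN8237, 0.26 on siNT, -0.02 on siAURKA-1 and 0.0024 on siAURKA-2, with siNT alone high. NLRC5, the activator of class I genes, was at -0.17 on the DMSO array, -0.18 on MLN8237, 0 on siNT, 0.24 on siAURKA-1 and 0.51 on siAURKA-2. Its 2 probe sets gave 0 and 0.47 on siAURKA-1 and 0.02 and 0.99 on siAURKA-2 against siNT, so the NLRC5 values on these arrays rest mainly on 1 probe set. The part of these regulators in the levels of the proteasome genes was not tested.

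**Figure D5:**
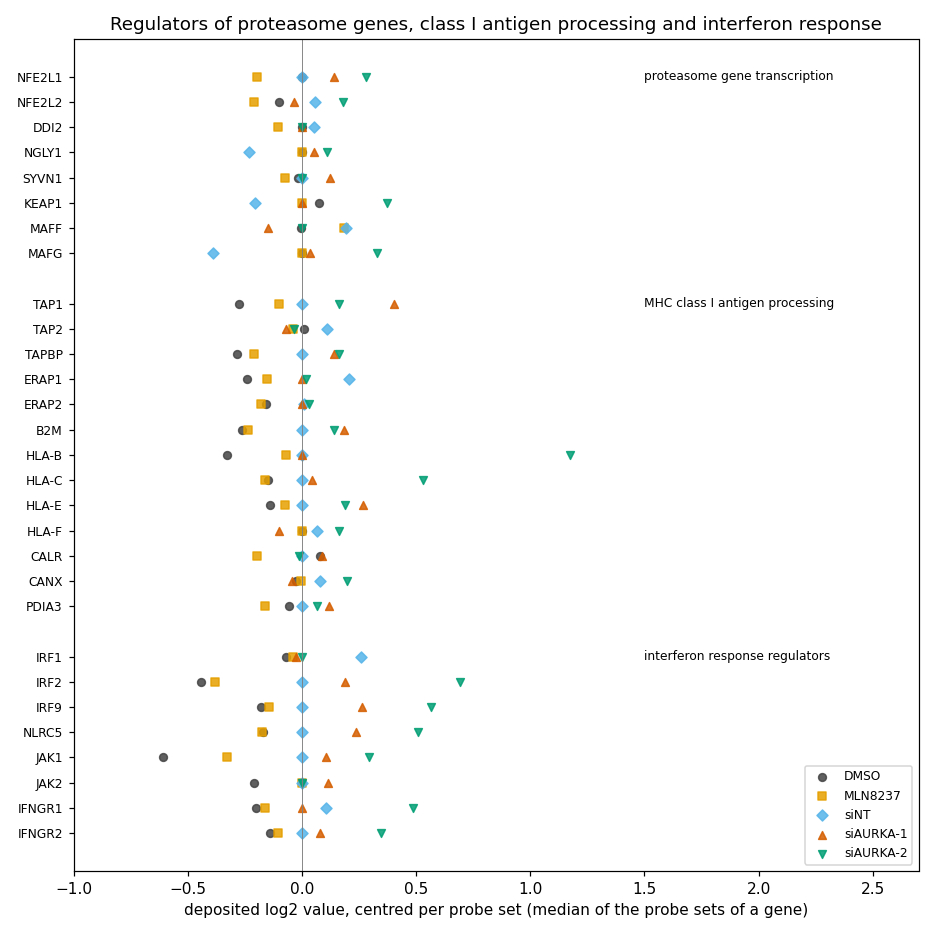
Deposited log2 value (x axis, centred per probe set) on the 5 arrays of genes that regulate proteasome genes, of MHC class I antigen processing and of interferon response regulators. The siRNA arrays lie to the right of DMSO and MLN8237 for most class I and interferon genes, with HLA-B at 1.17 for siAURKA-2.

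The 8 measured genes that control transcription of the constitutive genes had medians of 0.13 and 0.20 for siAURKA-1 and siAURKA-2 against siNT, and -0.06 for MLN8237 and 0.01 for siNT against DMSO. NFE2L1 stood at 0 on the DMSO array, -0.20 on MLN8237, 0 on siNT, 0.14 on siAURKA-1 and 0.28 on siAURKA-2. Its relative NFE2L2 stood at -0.10 on the DMSO array, -0.21 on MLN8237, 0.06 on siNT, -0.04 on siAURKA-1 and 0.18 on siAURKA-2. Both were lowest on MLN8237 and highest on siAURKA-2. DDI2, the protease that releases NFE2L1, ranged from -0.11 to 0.05. Their partner MAFG was 0.72 on siAURKA-2 and 0.42 on siAURKA-1 against siNT, but siNT lay -0.39 from DMSO. KEAP1, the adaptor that targets NFE2L2, gave 0.58, 0.21 and -0.28. Of these 8 genes, 1 lay 1.5-fold or more above siNT on siAURKA-2 and 0 on siAURKA-1, beside 1.96% and 2.57% of all genes. None were lower by that much, beside 3.11% and 4.48%.

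A further list held 11 genes outside the PSM names, for subunits, assembly factors and proteins associated with the proteasome. Of these 11, 1 was at least 1.5-fold higher than siNT on siAURKA-2, beside 1.96% of all genes. None were higher by that much on siAURKA-1 or on MLN8237 against its control, beside 2.57% and 0.367%. The gene higher on siAURKA-2 was PAAF1, an assembly chaperone of the base. It stood at 0 on the DMSO array, 0.04 on MLN8237, -0.43 on siNT, 0 on siAURKA-1 and 0.20 on siAURKA-2, low with siNT. POMP, which helps to form the beta ring, stood at -0.01 on the DMSO array, 0 on MLN8237, 0.07 on siNT, 0.14 on siAURKA-1 and -0.05 on siAURKA-2. Against siNT, its 3 probe sets spanned -1.03 to 0.19 on siAURKA-1 and -0.71 to -0.07 on siAURKA-2, so its direction on siAURKA-1 is uncertain. The ubiquitin receptor ADRM1 stood at 0.10 on the DMSO array, 0 on MLN8237, 0.10 on siNT, -0.09 on siAURKA-1 and -0.10 on siAURKA-2, lowest on the AURKA siRNA arrays. The small lid subunit SEM1 stood at -0.04 on the DMSO array, 0 on MLN8237, -0.05 on siNT, 0.12 on siAURKA-1 and 0.18 on siAURKA-2, highest on them. UCHL5, a deubiquitinase bound to ADRM1, was -0.26 and -0.46 against siNT. Of 12 ubiquitin receptor and segregase genes none were 1.5-fold apart from siNT on siAURKA-1 or siAURKA-2, beside 7.05% and 5.08% of all genes. NUB1, which delivers modified proteins to the proteasome, was -0.37 and -0.52 against siNT. The 3 measured ubiquitin and activating enzyme genes (UBB, UBA1 and UBA6) lay between -0.06 and 0.11 against siNT with both siRNAs.

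Of the genes that share the letters only, PSMC3IP, which encodes a partner of the meiotic and recombination protein DMC1, stood at 0.28 on the DMSO array, 0 on MLN8237, 0.04 on siNT, -1.10 on siAURKA-1 and -0.35 on siAURKA-2 on 1 probe set. It was 2.21-fold lower than siNT on siAURKA-1 (-1.14) and 1.31-fold lower on siAURKA-2 (-0.39), and -1.39 and -0.63 against DMSO. This exceeds every proteasome gene in the comparisons of siAURKA-1 with siNT and with DMSO. PSME3IP1, a partner of PSME3, differed from siNT by -0.14 on siAURKA-1 and 0 on siAURKA-2.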

How the data were processed

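Each of the 5 GFP-SAS cultures gave 1 Affymetrix array, from 10 ng of total RNA. The authors' deposited values were read as log2. The submitters' processing notes name RMA (robust multi-array average), and the sources used here give neither the software nor the base of the logarithm. The median over the arrays was 0 for all 49386 probe sets, so each probe set had been centred, which those sources do not describe.

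Probe sets naming 1 gene (45259) were used, with symbols updated by Entrez number, and each gene was given their median (18239 genes, 6416 with 1 probe set). Of the 44 proteasome genes, 13 had 1 probe set. Among the 31 with several, all probe sets had the gene's direction in 21 genes for siAURKA-1 against siNT, 19 for siAURKA-2 and 19 for MLN8237. With 1 array per group, groups were compared by difference and by counts past 1.5-fold, with no test. Members, role groups and lists were chosen with earlier results of these data known, and the promoter motifs, the promoters shown and the comparison of arrays with and without siRNA after the values were seen. All members could be named, and of each list the 2 highest and 2 lowest genes of a comparison plus NFE2L1, NFE2L2, DDI2, POMP, ADRM1, SEM1 and PAAF1. The markers of leukocytes and fibroblasts were listed as other cell types, and their values are in the report with those of squamous epithelium. The code was tested on simulated data. Python 3.11.15 and pandas 2.3.3 were used.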

Additional observations from a re-analysis of the deposited data

Results flagged for a closer look

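The immunoproteasome subunit gene PSMB10 was not among the genes analysed. A signal outside the gene values came from 3 probe sets that name both PSMB10 and its neighbour CTRL, a chymotrypsin-like protease gene, and it cannot be assigned to either. Their median was 0.65 higher with siNT than with DMSO, past 1.5-fold, and stood at 0 with DMSO, -0.34 with MLN8237, 0.65 with siNT, 0.19 on siAURKA-1 and -0.19 on siAURKA-2. The siNT array was highest and MLN8237 lowest on each of the 3.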

How the results depend on the processing

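No paired analysis was possible because each group has 1 array, which also means that no replicate could be left out. A median was taken to have moved only if it changed by more than 0.0706, 0.5 of the interquartile range of siNT minus DMSO over all genes. This exceeds the size of 4 of the 5 medians, so staying within it shows nothing about their stability. The one median past it was siAURKA-1 against siAURKA-2 over genes with at least 2 probe sets (0.037, against 0.12). With the controls exchanged, the median went from 0.03 to 0.0011 for siAURKA-1 and from -0.06 to -0.02 for MLN8237, changes of over 1.5 times. Counts past the threshold are small, and 26 of 38 stayed within 1.5 times. Many of these set 0 beside 0, for MLN8237 against DMSO and siAURKA-2 against siNT. A count of 0 at 1.5-fold also fixes a count of 0 at 2-fold. Centring each array on its median over all genes could change nothing, since that median was 0 on every array. The 26 thus show little about stability. At 1.2-fold, 7 members differed for siAURKA-1 against siNT, 3 for siAURKA-2 against siNT, 4 for siNT against DMSO and 11 between the AURKA siRNAs. At 2-fold the count was 0 for siAURKA-1 against siNT, for siNT against DMSO and between the AURKA siRNAs. With the mean of probe sets, siAURKA-1 against siNT gave 1. With probe sets naming several genes, siAURKA-2 against siNT gave 1 and siNT against DMSO 2. Over genes with at least 2 probe sets, siNT against DMSO gave 0, since PSMG3 has 1. With siNT as its control, MLN8237 gave 2. The cause of the other changes was not tested. Without signal levels, how far low signal limits these differences is unknown.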
